A study of Homo sapiens with 4 samples.

Results

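The cytosolic ribosomal protein genes were taken as the protein-coding genes with a symbol of RPL or RPS and a number, with *RPLP0*, *RPLP1*, *RPLP2* and *RPSA*, leaving out the RPS6K kinases, *RPS19BP1*, pseudogenes and genes on chromosomes 8 and 14. The rule took 83 genes of the annotation, of which 82 had a row among the 63677 genes counted. In all, 78 members had counts, and all 78 passed the filter on low counts and were tested, 48 of them from the large subunit and 30 from the small subunit. Another 3 were at 0 in every library, the readthrough genes *RPS10-NUDT3*, *RPL17-C18orf32* and *RPL36A-HNRNPH2*, whose transcripts run from a ribosomal protein gene into its neighbor. Their exons are shared with the genes they join, and how reads lying in both were counted is not stated. Their values of 0 therefore do not show whether readthrough was made. The remaining member with a row is Y-linked and is not reported.

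RNAseq read counts were compared between FLO-1LM and FLO-1 parental cells, with 2 libraries per line (replicates 48 and 49 for FLO-1LM, 50 and 51 for parental). FLO-1 is a long-used human cell line from an adenocarcinoma of the esophagus. The authors report that FLO-1 itself metastasizes in mice and that FLO-1LM, its subline, is more metastatic. Liver deposits were carried from mouse to mouse in the immunodeficient NSG strain, and cells of such a deposit were then put into culture. Both lines were grown in culture, with no treatment named, and were harvested when 80% confluent, 24 hours after the medium had been renewed. The comparison asks how gene expression differs between a highly metastatic subline and the cells it came from. As FLO-1LM is a single derived line, what came with selection in the host and what came with derivation and culture of the line cannot be told apart, and no source says whether libraries of the same line stand for separate cultures, so that p-values measure only the spread between these libraries.

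Ribosomal proteins coat and fold the ribosomal RNA that makes up the core of the ribosome. The small subunit reads the message, while the large subunit joins amino acids and threads the new chain through an exit tunnel. Most are needed in equal numbers, are assembled in the nucleolus, and are encoded by messages that open with a run of pyrimidines (a 5′ terminal oligopyrimidine tract, or TOP), through which mTOR signaling adjusts their translation together. Nearly every ribosomal protein gene has also left processed pseudogenes, near-copies of its spliced message, across the human genome.

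Total counts ran from 19060310 to 25920336 per library, and TMM factors from 0.985 to 1.01. Of 17143 genes tested by edgeR's quasi-likelihood test, 69 were higher and 313 lower in FLO-1LM at a Benjamini-Hochberg adjusted p below 0.05. Markers of the carcinoma cells were present, with a summed level of 486 and 468 CPM (counts scaled to a common library total) in FLO-1LM and 762 and 780 in parental cells, and *KRT8*, *KRT18* and *KRT19* were among the genes lower in FLO-1LM. *KRT7* went the other way without passing the threshold, at 6.37 and 6.06 CPM in FLO-1LM and 3.09 and 4.90 in parental cells (log2 fold change 0.64, SE 0.26, edgeR adjusted p = 0.303). *EPCAM* was near 0, at 0.135 to 0.466 CPM. Leukocyte, endothelial and hepatocyte markers summed to less than 1 CPM in every library, with *PTPRC* and 4 of 5 hepatocyte markers at 0. Fibroblast markers summed to 10.01 to 13.1 CPM, nearly all of it from *COL1A1*, with *COL3A1* and *DCN* at 0. All of these are human genes counted on the human reference, so their levels do not show whether mouse host cells were present. Mitochondrial genes took 9.96% and 9.57% of counts in FLO-1LM and 7.93% and 8.31% in parental cells. With mitochondrial genes left out of the analysis, 2 members were again higher and 0 lower, and the members' median log2 fold change was 0.07. The part of the keratin difference in the values below was not tested.

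Ribosomal protein messages as a whole took nearly the same share of counts in both lines. The members took 2.24% and 2.41% of all counts in FLO-1LM and 2.23% and 2.40% in parental cells, so that the libraries of the lines overlapped fully. The means were 2.33% ± 0.120 and 2.31% ± 0.122 (SD, n = 2), and exact binomial 95% intervals of each share, which cover counting error only, reached at most 0.0069 percentage points to either side. In gene-by-gene terms, 2 of 78 members were higher in FLO-1LM and 0 were lower, against 0.402% and 1.83% of all tested genes (edgeR). No member was lower at an unadjusted p below 0.05 either (edgeR), beside 7.08% of all tested genes. Limma voom and DESeq2 also called 0 members lower, beside 301 and 268 of all tested genes. The median log2 fold change of the members was 0.07, beside 0.0016 over all tested genes, and 51 of 78 were above 0. This median is no larger than the SD of 0.071 between libraries of a line in the median member level, and it was −0.0048 without parental replicate 50, the library in which the members were lowest.

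**Figure D1:**
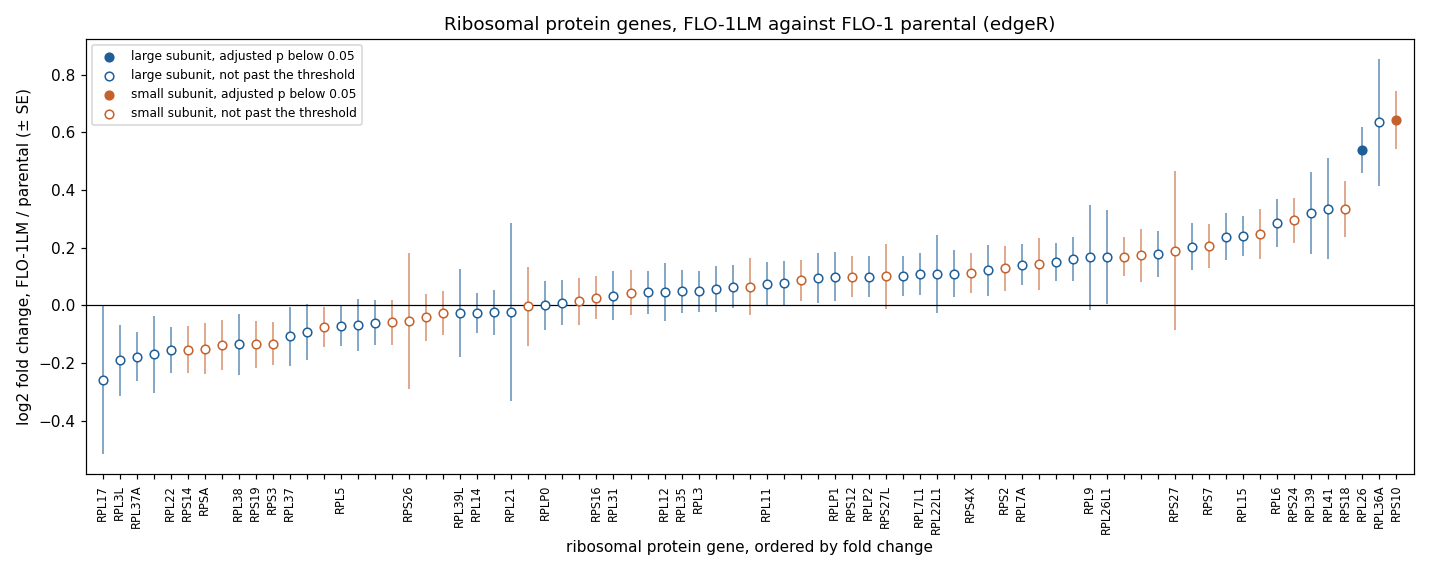
Log2 fold change of 77 ribosomal protein genes in FLO-1LM against parental cells, with the standard error from edgeR as a bar. Filled points passed an adjusted p of 0.05. *RPL26* and *RPS10* stand at 0.54 and 0.64, and most other genes lie within 0.25 of 0. Genes named in the text carry a label, and only members with a count in every library are drawn.

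Most members had a small fold change. In all, 68 of 78 (87.2%) had a log2 fold change within 0.25 of 0, compared with 70.6% of all tested genes. These shares are not matched for level. All tested genes include many with few counts, whose fold changes scatter more, whereas 61 of 78 members had at least 1000 counts in every library. The middle 50% of members lay between −0.04 and 0.16. The large-subunit median was 0.07 and the small-subunit median 0.08, each with 1 member past the threshold. Both FLO-1LM libraries lay above both parental libraries for 26 members (33.3%, beside 20.9% of all tested genes), and below both for 3 members, *RPL14*, *RPL17* and *RPL22* (3.85%, beside 21.7%). For the other 49 members the libraries of the lines overlapped. Summed with their copies, as given further below, none of the 3 stayed below both parental libraries. *RPL14* then had 603 and 593 CPM in FLO-1LM and 581 and 571 in parental cells, and *RPL17* and *RPL22* overlapped. Some of the 26, such as *RPS18* and *RPS2*, also overlapped in the sum.

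*RPL26* was 1.45-fold higher in FLO-1LM. It encodes a large-subunit protein beside the exit of the peptide tunnel, which is modified by UFM1 and also binds MDM2 and the message of p53. The gene (ENSG00000161970) lies on the minus strand at chr17:8280834-8286531 of GRCh37. It had 6677 and 6734 counts in the FLO-1LM libraries and 4289 and 3681 in the parental libraries, or 300 and 262 CPM against 195 and 192 CPM. Both FLO-1LM libraries were above both parental libraries, which nearly coincided. The log2 fold change was 0.54 (SE 0.079, edgeR adjusted p = 0.000558).

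*RPS10* showed the larger change of the called pair, 1.56-fold. Its protein sits at the head of the small subunit and is one of the proteins that the ligase ZNF598 marks with ubiquitin when ribosomes collide. The gene (ENSG00000124614) lies on the minus strand at chr6:34385231-34393846. It had 1274 and 1685 counts in FLO-1LM against 876 and 744 in parental cells, or 57.2 and 65.4 CPM against 39.7 and 38.8 CPM. The groups did not overlap, and the parental libraries were again close to each other. The log2 fold change was 0.64 (SE 0.0998, edgeR adjusted p = 0.00102). *RPL26* and *RPS10* were past the threshold in each of 14 alternative analyses, in which their log2 fold changes ran from 0.40 to 0.63 and from 0.54 to 0.74.

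**Figure D2:**
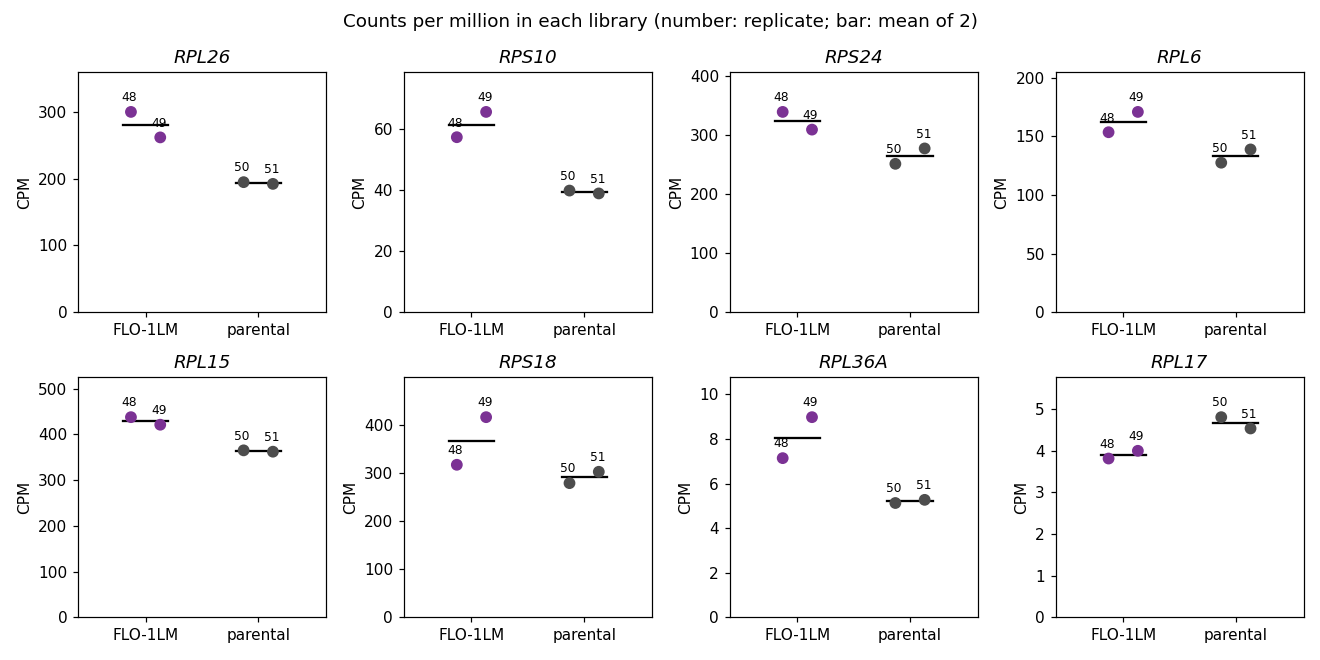
CPM in each library for the 2 called members, the 4 members next to the threshold, and *RPL36A* and *RPL17*. Points are libraries, marked by replicate number, and bars are means of 2. *RPL26* and *RPS10* are higher in both FLO-1LM libraries, and *RPL17*, at 3.82 to 4.81 CPM, is lower in both.

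Just outside the threshold were 4 members, all higher in both FLO-1LM libraries than in both parental libraries. *RPS24*, a small-subunit protein mutated in Diamond-Blackfan anemia, an inherited failure of red cell production, had 340 and 310 CPM in FLO-1LM and 252 and 278 in parental cells, a log2 fold change of 0.29 (SE 0.078, edgeR adjusted p = 0.0542). *RPL6*, of the large subunit, had 153 and 171 against 127 and 139 CPM (adjusted p = 0.0876). *RPL15*, a large-subunit protein also mutated in Diamond-Blackfan anemia, had 438 and 421 against 365 and 362 CPM (adjusted p = 0.0920).

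*RPS18*, which lies at the head of the small subunit, had 317 and 416 against 279 and 302 CPM (adjusted p = 0.0947), the lower FLO-1LM library being near the parental values. *RPS24* was past the threshold with limma voom (adjusted p = 0.0412) and with DESeq2 (0.0304), and *RPL15* with DESeq2 alone of these (0.0423). Over all members an unadjusted p below 0.05 was reached by 16 higher (20.5%, beside 5.29% of all tested genes) and 0 lower.

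*RPS10*, *RPL36A*, *RPL26* and *RPS18* were among the 5 members with the largest fold changes. *RPL36A*, a large-subunit protein near the site where spent tRNA leaves, had only 159 and 231 counts in FLO-1LM and 113 and 101 in parental cells (log2 fold change 0.63, SE 0.22, adjusted p = 0.193). *RPL41*, the shortest ribosomal protein, followed with 11.9 and 13.8 against 10.7 and 9.70 CPM. At the other end stood *RPL17*, *RPL3L*, *RPL37A* and *RPL22*, with log2 fold changes of −0.26, −0.19, −0.18 and −0.16 and adjusted p from 0.406 to 0.781. *RPL17*, a tunnel-exit protein, had 3.82 and 4.001 CPM in FLO-1LM and 4.81 and 4.54 in parental cells. *RPL37A*, a zinc-binding large-subunit protein, had 555 and 683 against 672 and 730 CPM, so the groups overlapped.

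The start sites below show the element that most of these genes share, for the called members, for 2 of the nearest, for the member with the longest run and for 2 paralogs that lack it. Each window runs from 10 bases before the annotated first base to 20 bases from it on, taken from RefSeq promoters of GRCh38.p14 and placed on GRCh37 by exact match. Capitals mark the unbroken pyrimidine run that opens the message with C.
RPL26 chr17:8286492-8286521 minus strand: gcgtgtagttCTCTTCCCTTTTgcggccat
RPS10 chr6:34393827-34393856 minus strand: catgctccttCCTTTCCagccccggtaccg
RPS24 chr10:79793611-79793640 plus strand: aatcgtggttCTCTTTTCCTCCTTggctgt
RPS18 chr6:33239842-33239871 plus strand: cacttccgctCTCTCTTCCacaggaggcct
RPL39 chrX:118925574-118925603 minus strand: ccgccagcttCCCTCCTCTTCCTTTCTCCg
RPL26L1 chr5:172385722-172385751 plus strand: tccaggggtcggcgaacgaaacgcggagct
RPS27L chr15:63449657-63449686 minus strand: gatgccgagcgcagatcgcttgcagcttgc

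The runs were 12 bases in *RPL26*, 7 in *RPS10*, 14 in *RPS24* and 9 in *RPS18*, with the longest of any member, 19, in *RPL39*. A run of at least 5 pyrimidines that began with C at the first base was found in 47 of the 65 members with a promoter entry (72.3%), compared with 1404 of 27305 genes (5.14%). The motif CCGGAAG, in either strand of the 250 bases before and 50 bases after the start, was found in 36.9% of members and 12.2% of all genes, and TATAAA in 9.23% and 14%. By fold change, the median was 0.08 for the 47 members with the pyrimidine run and 0.10 for the 18 without it. Of the nearest members, *RPL15* and *RPL6* had no run that opened at an annotated first base. Runs that began away from that base were not counted, such as a run downstream of an annotated start of *RPL15*. The 18 can therefore include genes with a run nearby.

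Members were next grouped by their place and role in the ribosome. The acidic stalk, which draws elongation factors to the ribosome, and its base showed no member past the threshold. *RPLP0* had 397 and 485 CPM in FLO-1LM and 424 and 458 in parental cells, and *RPLP1* had 200 and 177 against 164 and 188. The groups overlapped for both. *RPLP2* had 423 and 436 against 385 and 417 CPM (log2 fold change 0.10, SE 0.072, adjusted p = 0.646), and *RPL12* of the stalk base had 132 and 170 against 137 and 155. By edgeR, limma voom and DESeq2 0 of 4 were called, and 0 of 4 had an unadjusted p below 0.05.

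*RPL5* and *RPL11* join 5S ribosomal RNA into a particle that is built into the large subunit, or binds MDM2 when assembly fails. *RPL5* had 607 and 586 CPM in FLO-1LM and 605 and 649 in parental cells, and *RPL11* had 733 and 839 against 721 and 772. The libraries of the lines overlapped for both, with log2 fold changes of −0.07 (SE 0.070) and 0.08 (SE 0.075). Of 6 members listed here as binding MDM2 (*RPL5*, *RPL11*, *RPL23*, *RPL26*, *RPS7* and *RPS27L*), only *RPL26* was past the threshold, and 5 of 6 were above 0. Over all tested genes, 0.402% were called higher and 50.4% were above 0. These counts hold for the genes listed and not for every protein that may bind MDM2.

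Around the tunnel exit, *RPL26* was the 1 of 8 listed members past the threshold, and 6 of 8 lay above 0, from −0.26 for *RPL17* to 0.54. The shares over all tested genes were 0.402% called higher and 50.4% above 0. *RPL39*, a very short protein that lines the tunnel, had 26.6 and 20.8 CPM in FLO-1LM and 18.6 and 19.3 in parental cells (log2 fold change 0.32, SE 0.14, adjusted p = 0.364). *RPL35* and *RPL31*, which flank the exit, overlapped between lines, at 473 and 470 against 425 and 487 CPM and at 286 and 262 against 244 and 292 CPM.

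Among the 3 proteins marked with ubiquitin on stalled or collided ribosomes, *RPS10* was called. *RPS2* had 214 and 222 CPM against 188 and 211 (log2 fold change 0.13, SE 0.078, adjusted p = 0.555). *RPS3* had 789 and 874 against 860 and 964 (log2 fold change −0.13, SE 0.075, adjusted p = 0.511). Of the 3, only *RPS10* showed FLO-1LM values well clear of the parental ones.

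Of 16 genes mutated in Diamond-Blackfan anemia, 2 were higher (*RPL26* and *RPS10*) and 0 lower, with 10 of 16 above 0 and a median of 0.06, beside 0.402% called higher and 50.4% above 0 over all tested genes. Limma voom called 3 of the 16 and DESeq2 called 4, all higher. Over all tested genes these tools called 67 and 69 higher and 301 and 268 lower. *RPS19*, the gene most often mutated in that disease, had 269 and 299 CPM in FLO-1LM and 290 and 334 in parental cells. *RPS7*, which also binds MDM2, had 182 and 170 against 149 and 157 CPM (log2 fold change 0.21, SE 0.077, adjusted p = 0.238). Its groups did not overlap.

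No paralog that replaces or resembles another ribosomal protein was past the threshold. *RPL3L*, the form of *RPL3* typical of striated muscle, had 24.6 and 28.0 CPM in FLO-1LM and 28.0 and 32.1 in parental cells. *RPL39L*, best known from the testis, had 15.4 and 14.4 against 15.1 and 15.4 CPM. *RPL22L1*, which can stand in for *RPL22*, had 21.8 and 26.1 against 20.8 and 23.8 CPM.

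*RPL26L1*, close in sequence to *RPL26*, had 17.4 and 15.4 against 12.8 and 16.4 CPM (log2 fold change 0.17, SE 0.16, adjusted p = 0.766). *RPS27L*, a p53 target, had 39.9 and 43.0 against 34.8 and 42.7 CPM. *RPL7L1*, a nucleolar relative of *RPL7*, had 191 and 198 against 181 and 180 CPM (log2 fold change 0.11, SE 0.073, adjusted p = 0.628), and the X-linked *RPS4X* had 574 and 610 against 543 and 552 CPM (0.11, SE 0.069). The last 2 had both FLO-1LM libraries above both parental libraries. By edgeR, limma voom and DESeq2, 0 of the 6 paralogs other than *RPS4X* were called, and 0 had an unadjusted p below 0.05.

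Of ribosomal proteins whose symbols the rule does not take, *FAU*, made as a fusion with a ubiquitin-like protein, had 152 and 162 against 135 and 148 CPM, and *RACK1*, a scaffold of the small subunit, had 1096 and 1176 against 1005 and 1075 CPM. Log2 fold changes were 0.15 (SE 0.080, edgeR adjusted p = 0.486) and 0.13 (SE 0.068, adjusted p = 0.482). Both FLO-1LM libraries were above both parental libraries for both genes.

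The libraries of a line also differed from each other. Across the 78 members, the median absolute log2 fold change between lines, each taken over 2 libraries, was 0.11. The median absolute log2 difference was 0.14 between the FLO-1LM libraries and 0.14 between the parental libraries. Over the 10339 genes with at least 10 CPM it was 0.12 and 0.088. Parental replicate 51 was above replicate 50 for 66 of 78 members, with a median of 0.12, while all such genes had a median of −0.001 and 49.7% above 0. FLO-1LM replicate 49 was above replicate 48 for 47 of 78 members.

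*RPL38*, whose loss in mice impairs translation of Hox messages, had 251 CPM in replicate 48 and 348 in replicate 49, against 326 and 332 in the parental libraries. *RPL37*, of the large subunit, had 390 and 528 against 470 and 519 CPM. In both, replicate 48 alone was low and replicate 49 was above both parental libraries. With replicate 49 left out, the log2 fold change was −0.389 for *RPL38* and −0.343 for *RPL37*. For *RPS14*, *RPSA* and *RPL37A* it was then −0.286, −0.296 and −0.335. In the same fit *RPL26* and *RPS10* stayed above 0, at 0.633 and 0.542, and with replicate 48 left out they were at 0.436 and 0.736.

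**Figure D3:**
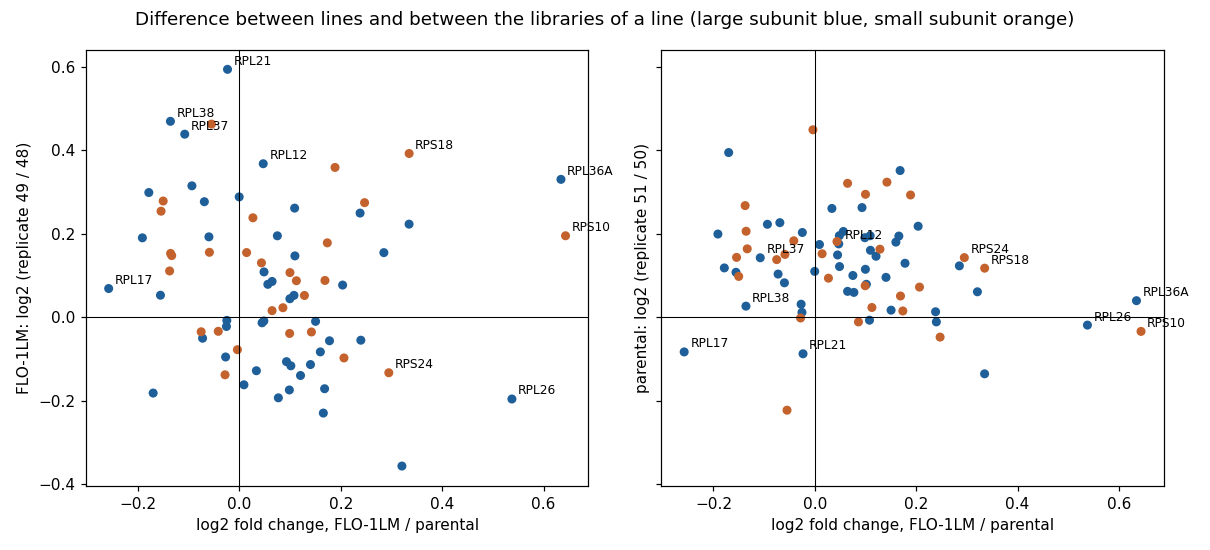
Log2 fold change between the lines (horizontal axis) against the log2 difference between the libraries of FLO-1LM (left) and of parental cells (right), for the 77 members with a count in every library. Most members spread as far along the vertical axes as along the horizontal axis, and in parental cells most lie above 0 (66 of 77), replicate 51 being the higher.

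Reads of these genes can be shared with their copies, and how the authors assigned such reads is not stated. In the files, 1592 genes carry a name of a ribosomal protein pseudogene and 599 of them had a count. Together they took 0.889% and 0.926% of counts in FLO-1LM and 0.866% and 0.940% in parental cells. Of the 78 members, 36 had over 50% of the 50-base stretches of their coding sequence elsewhere in GRCh37, 8 of them all, and 4 (*RPL38*, *RPL39L*, *RPL3L* and *RPS27L*) none. The median log2 fold change was 0.13 for these 36 and 0.04 for the other 42, and both called members were among the 36.

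For *RPL26*, 57.8% of 50-base stretches occurred elsewhere, and its row held 54.4% of the counts of the gene and its named pseudogenes. Another protein-coding gene, ENSG00000263809, overlaps 14.5% of the exons of *RPL26* on the same strand. It is not named as a copy and is not part of the sum given here. *RPL26P19* on chromosome 5 had 2296 and 5633 counts in FLO-1LM and 2763 and 3069 in parental cells, with replicate 49 far above the rest. *RPL26P36* on chromosome X had 1092 and 1038 against 671 and 579 counts (log2 fold change 0.56, SE 0.11, adjusted p = 0.0117), close to the change of *RPL26* itself. Summed with its copies, *RPL26* had 462 and 529 against 359 and 390 CPM (log2 fold change 0.40, SE 0.078, adjusted p = 0.00682). In the sum replicate 49 was the higher FLO-1LM library, whereas in the row of *RPL26* alone it was the lower.

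For *RPS10* all 50-base stretches occurred elsewhere, yet its own row held 90.6% of the counts of the family. The sum gave 61.9 and 71.3 against 45.7 and 43.6 CPM (log2 fold change 0.58, SE 0.098, adjusted p = 0.00186). The readthrough gene *RPS10-NUDT3*, which overlaps 31.5% of the exons of *RPS10* on the same strand, was at 0 in every library. Of its own exon bases, 85.4% are shared with *NUDT3* and 14.5% with *RPS10*. How reads lying in both genes were counted is not stated. The value of 0 therefore does not show whether readthrough was made, or whether reads are missing from the row of *RPS10*.

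Summing changed other members more. *RPS18* held 25.5% of its family's counts, most of the rest lying in *RPS18P5*, which had 21018 and 22359 against 20432 and 18950 counts. The summed log2 fold change was 0.04 (SE 0.067, adjusted p = 0.891), in place of 0.33 for *RPS18* alone. *RPL36A* held 4.44% of its family's counts and went from 0.63 to 0.26 (adjusted p = 0.184).

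*RPL17*, with 10.3%, went from −0.26 to 0.09, 1 of 6 members whose fold change had another sign in the sum. None of the 6 was past the threshold either way. *RPS24*, by contrast, gave 0.30 in the sum (SE 0.073, adjusted p = 0.0305) and was then past the threshold. Over all members the median was 0.07 after summing, 3 were called higher and 0 lower, and 7 moved by over 0.1.

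**Figure D4:**
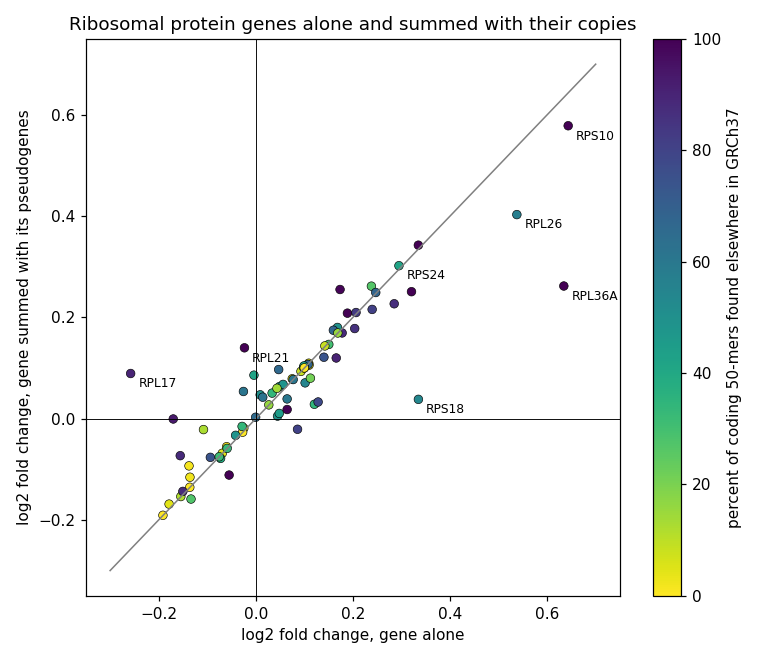
Log2 fold change of each member alone (horizontal axis) and summed with its pseudogenes and readthrough genes (vertical axis), for the 77 members with a count in every library. The color gives the percent of coding 50-base stretches found elsewhere in GRCh37. Most points lie on the diagonal, and *RPL36A*, *RPS18* and *RPL17*, at 0.63, 0.33 and −0.26 alone, lie far from it.

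Levels per length differed widely between members. Per kilobase of merged exons, averaged over both lines, the 5 highest members included *RPS16* (685 CPM), *RPS12* (457), *RPL35* (302) and *RPL7A* (289). The lowest were *RPL21* (1.53), *RPL36A* (1.67), *RPL17* (1.75) and *RPL9* (2.14). Merged exons include retained introns and long 3′ ends that these messages may lack, so coding length was used as a second measure, chosen after seeing the data. Per kilobase of coding sequence the highest were *RPS16* (4183 CPM), *RPL37A* (2392), *RPS14* (1905), *RPL37* (1638) and *RPL38* (1497), of which only *RPS16* was among the first 5 by exons. The lowest 5 by coding sequence shared 3 members with those by exons, and ended with *RPL17* (7.77) and *RPL21* (6.99).

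The order of levels was nearly the same in both lines (Spearman's rho 0.99 across 78 members, which share libraries). Of the 10 lowest members by coding sequence, 8 had over 50% of 50-base stretches elsewhere, compared with 0 of the 10 highest. By merged exons these counts were 8 and 1. Across the 78 members, that percentage had a rho of −0.45 with the level per kilobase of merged exons and −0.57 with the level per coding kilobase, a description of genes that share libraries and an unstated counting rule. The low values of *RPL21*, *RPL36A*, *RPL17*, *RPS27* and *RPS26* count only reads assigned to these rows.

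**Figure D5:**
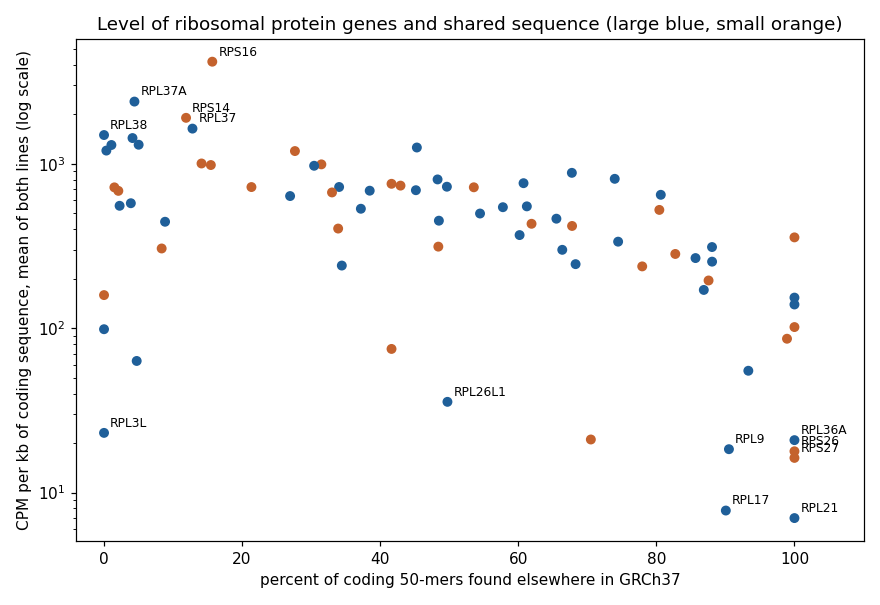
Level of each of 78 members in CPM per kilobase of coding sequence, mean of both lines, on a log scale (vertical axis), against the percent of its coding 50-base stretches found elsewhere in GRCh37 (horizontal axis). *RPS16* is the highest at 4183, and *RPL21*, all of whose stretches occur elsewhere, the lowest at 6.99.

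Genes that make or regulate ribosomes were tested in the same fit. For the counts in this and the next lists, 50.4% of all tested genes were above 0. At an unadjusted p below 0.05 (edgeR), 5.29% of all tested genes were higher and 7.08% lower. Of 33 ribosome assembly factors, 0 were past the threshold by edgeR, limma voom or DESeq2, 28 were above 0, and 6 had an unadjusted p below 0.05, all higher. *WDR43*, part of the machinery that processes the small-subunit RNA, came nearest, with 111 and 102 against 83.0 and 87.4 CPM (log2 fold change 0.32, SE 0.083, adjusted p = 0.0532). *NPM1*, an abundant nucleolar chaperone, had 285 and 291 against 257 and 248 CPM. *NCL*, another, had 1005 and 1038 against 982 and 968 CPM.

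Of 18 subunits and factors of RNA polymerase I, which transcribes ribosomal RNA, 0 were called by any of the 3 tools, with 2 at an unadjusted p below 0.05, both higher. *TAF1D*, of its promoter-binding complex, had 113 and 119 against 97.7 and 92.2 CPM (log2 fold change 0.29, SE 0.081, adjusted p = 0.0824). Of 12 genes of mTOR signaling and TOP translation, 0 were called by any of the 3 tools and 6 were above 0. Only *RPS6KB1* had an unadjusted p below 0.05 (edgeR), with 97.5 and 93.4 against 88.6 and 76.4 CPM (log2 fold change 0.21, SE 0.089, adjusted p = 0.334). *LARP1*, which binds TOP messages when mTOR is off, had 315 and 345 against 317 and 314 CPM, and *MTOR* itself 213 and 214 against 221 and 219.

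Of 10 tested elongation factors and other TOP messages, 0 were called by any of the 3 tools and 7 were above 0. An unadjusted p below 0.05 (edgeR) was reached by 2, both higher. *EEF1A1* had 1281 and 1287 against 1198 and 1240 CPM, and *EEF2*, the translocase, had 2202 and 2292 against 1921 and 2120. *EEF1G* was listed at 0 in every library. How reads were assigned is not stated, so this 0 does not show whether the message was made. Of 71 mitochondrial ribosomal proteins, which build a separate ribosome, 0 were called by any of the 3 tools, 7 had an unadjusted p below 0.05, all higher, 50 were above 0 and the median was 0.06, close to the 0.07 of the cytosolic members.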

How the data were processed

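RNAseq was performed by the authors on 2 FLO-1LM and 2 FLO-1 parental libraries made with a directional kit. Per the labels and the methods, reads were converted with bcl2fastq 2.17, trimmed with Trimmomatic 0.30 and mapped to GRCh37. The authors deposited raw read counts per Ensembl gene. The aligner, the counter, whether it used strand, and what became of reads that match more than 1 place are not given in the sources used here.

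Low genes were removed by filterByExpr with default settings (minimum count 10, minimum total 15), scaled by TMM and compared with edgeR 4.0.16 (glmQLFit, glmQLFTest; R 4.3.3), with Benjamini-Hochberg adjustment over 17143 genes and a threshold of 0.05. Standard errors were taken from the fold change and the F statistic. CPM are after TMM scaling. With 2 libraries per line an exact two-sided permutation test cannot go below p = 0.333, so no test of a single value was run. The script was tested on simulated counts with 200 changed genes. EdgeR recovered 38 of 100 genes changed by 0.5 on the log2 scale and 69 of 100 changed by 1, with 10 false calls among 17143. Real spreads differ.

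Symbols, positions and exon lengths came from the GENCODE annotation lifted to GRCh37, a later annotation than the one counted on. Of 63677 gene IDs, 55665 had a symbol in it. Stretches of 50 bases of each coding sequence were searched by exact match in the rest of GRCh37, on both strands. A gene's copies were the genes named as its pseudogenes and its readthrough genes. Promoters came from RefSeq, with an entry for 65 of 78 members. Members without an entry included *RPL3L*, *RPL5*, *RPL23*, *RPL23A*, *RPL37*, *RPL39L*, *RPS2* and *RPS15A*.

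Named members were those called, the 5 highest and lowest by fold change and by level, paralogs, readthrough genes and members of the role groups. A few genes that this rule takes are not reported here by name but stay in every count and median. Genes of chromosomes 8 and 14 were left out of each list. Members and lists were chosen with earlier results of these data known. *RPL37*, *RPL38* and the lists' examples outside the ribosome were chosen after their values were seen. Alternatives were limma voom (limma 3.58.1), DESeq2 1.42.0, RLE factors, library totals only, TMM factors without ribosomal and mitochondrial genes, no low-count filter, 10 counts in every library, mitochondrial genes or ribosomal protein pseudogenes left out, members summed with copies, and each library left out.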

Additional observations from a re-analysis of the deposited data

How the results depend on the processing

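*RPL26* and *RPS10* were higher in FLO-1LM and past the threshold in every alternative run. The count of members called higher went from 2 to 4 with DESeq2 and to 7 with no low-count filter, where *RPS24*, *RPL6*, *RPL15* and *RPS18* were among those added, and ran from 2 to 8 when single libraries were left out. The count called lower was 0 except without FLO-1LM replicate 49, and so ran from 0 to 6. The median log2 fold change of members was between 0.04 and 0.07 under the scalings tried, and between −0.0048 and 0.14 with single libraries left out, the lowest being without parental replicate 50. Over all tested genes, the count called higher went from 69 to 147 with no low-count filter, the count called lower from 313 to 203 with 10 counts in every library, and with single libraries left out they ran from 20 to 356 and from 96 to 696. The causes were not tested. The log2 fold change of *RPL17* went from −0.26 to 0.089 when summed with copies. With single libraries left out it ran from −0.028 to 0.23 for *RPL22L1*, from −0.075 to 0.021 for *RPL39L*, from −0.025 to 0.17 for *RPL11* and from −0.042 to 0.25 for *RPS27L*. The difference of 0.0157 percentage points between lines in the share of counts on members was 0.0629 without mitochondrial genes in the total and 0.0211 with copies, within the spread of libraries. The median level of members was 62.0 CPM per kilobase of merged exons and 481 per kilobase of coding sequence, a measure chosen after seeing the data, and of the 10 lowest members 8 had over 50% of stretches elsewhere by either. No paired analysis was possible because the replicate numbers of the lines are not shared. In all, 61 of 78 members had at least 1000 counts in every library, and *RPL36A*, with 101 to 231 counts, had an SE of 0.22 against a median of 0.082 over members. Leaving out a library leaves its line with 1, whose spread is then assumed to be that of the other line.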
